A study of Mus musculus with 8 samples.

Results

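The Schlafen genes are described here in bone-forming cells from the skull of newborn mice. The members were chosen by symbol: Slfn1, Slfn2, Slfn3, Slfn4, Slfn5, Slfn8 and Slfn9, 7 of the 24421 genes in the deposited files. All 7 had a row in each of the 8 libraries. RNA was sequenced from osteoblastic cells isolated by enzymatic digestion from the calvaria of C57BL/6 mice aged 0 to 3 days, either wild type (WT) or lacking the gene Def6 (Def6-/-). Cells were taken before osteogenic differentiation (day 0) or after 12 days in medium with ascorbic acid and β-glycerophosphate, which gave 2 libraries in each of 4 groups: WT day 0, WT day 12, Def6-/- day 0 and Def6-/- day 12. The deletion was present in the whole animal, so that every cell type in a Def6-/- culture carried it, and no sorting step before sequencing is described. The study calls the libraries of a group biological replicates, but the sources used here do not say whether they came from separate animals or cultures, and p-values measure only the spread between these libraries.

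Schlafen proteins are a family found in mammals, and many mouse members are induced by type I interferon and are known chiefly from lymphocytes and myeloid cells. They are sorted by length into short members (Slfn1 and Slfn2), intermediate members (Slfn3 and Slfn4) and long members with a helicase-like C-terminal part (Slfn5, Slfn8 and Slfn9). Several act on cell growth, and some long members cut or bind transfer RNA and other nucleic acids. Def6 is a guanine nucleotide exchange factor and adaptor protein of lymphocytes that also binds interferon regulatory factors.

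All 7 genes lie in 1 cluster of 263.8 kb on mouse chromosome 11 (GRCm38, the assembly of mm10, with GENCODE M21 gene models). Slfn5 (82951349 to 82964840), Slfn2 (83065112 to 83070678), Slfn1 (83116849 to 83122670), Slfn4 (83175186 to 83190216) and Slfn3 (83191330 to 83215154) are on the plus strand. Slfn9 (82978390 to 82991830) and Slfn8 (83002158 to 83020810) are on the minus strand. Their coding sequences run from 337 codons in Slfn1 and 378 in Slfn2, through 602 in Slfn4 and 640 in Slfn3, to 884 in Slfn5 and 910 in both Slfn8 and Slfn9. Close copies are found among the intermediate and the long members: the coding sequences of Slfn8 and Slfn9 were identical at 92.7% of 2733 aligned bases, and those of Slfn3 and Slfn4 at 92.7% of 1788. The other pairs of members were identical at 64.4% to 78.2% of aligned bases.

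Sequence just before the transcription start is shown for the 4 members with the most reads, because interferon-stimulated factors bind short repeats there. The sequences are from RefSeq on GRCm38.p6, where all 7 members had an entry, and each is the 250 bases before the start, 5′ to 3′ on the gene's strand. Capitals mark a core of the interferon-stimulated response element, searched as GAAANNGAAA on both strands. Positions are chr11:82951852-82952101 (plus strand) for Slfn5, chr11:83020811-83021060 (minus strand, the upstream one of its 2 listed starts) for Slfn8, chr11:82991831-82992080 (minus strand) for Slfn9 and chr11:83064862-83065111 (plus strand) for Slfn2.
Slfn5: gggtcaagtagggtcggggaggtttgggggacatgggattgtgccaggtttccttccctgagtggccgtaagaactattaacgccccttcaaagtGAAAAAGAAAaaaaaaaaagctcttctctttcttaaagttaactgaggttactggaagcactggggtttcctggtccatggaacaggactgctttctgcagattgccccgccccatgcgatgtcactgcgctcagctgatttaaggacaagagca
Slfn8: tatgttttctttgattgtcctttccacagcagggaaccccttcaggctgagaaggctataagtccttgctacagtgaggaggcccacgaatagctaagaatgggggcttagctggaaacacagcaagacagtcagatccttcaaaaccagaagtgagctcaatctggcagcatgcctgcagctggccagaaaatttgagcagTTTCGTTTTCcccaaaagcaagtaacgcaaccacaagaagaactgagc
Slfn9: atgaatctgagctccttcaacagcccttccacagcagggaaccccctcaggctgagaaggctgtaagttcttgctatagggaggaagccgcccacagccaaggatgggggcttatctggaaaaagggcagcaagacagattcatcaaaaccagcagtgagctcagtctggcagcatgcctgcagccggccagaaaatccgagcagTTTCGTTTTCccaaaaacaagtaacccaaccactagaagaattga
Slfn2: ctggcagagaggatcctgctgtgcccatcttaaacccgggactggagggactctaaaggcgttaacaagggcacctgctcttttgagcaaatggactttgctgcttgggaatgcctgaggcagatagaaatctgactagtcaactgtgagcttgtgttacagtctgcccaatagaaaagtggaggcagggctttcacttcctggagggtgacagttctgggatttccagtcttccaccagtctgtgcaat
In windows of 250 bases before to 50 bases after the start, the core was found once each for Slfn5, Slfn8 and Slfn9, and 3.44% of all 32851 RefSeq promoters held it. It began 155 bases before the start in Slfn5, where it ran into a stretch of A, and 48 and 45 bases before it in Slfn8 and Slfn9, where both had the same letters, TTTCGTTTTC. The upstream sequences of Slfn8 and Slfn9 were identical at 85.1% of 242 aligned bases. The windows of Slfn1, Slfn2, Slfn3 and Slfn4 did not hold these letters. The core of the gamma-activated site, searched as TTCNNNGAA, which reads the same on both strands, was in none of the members' windows and in 8.30% of all promoters. These matches describe letters only.

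The libraries held 2414856 to 3482835 reads on genes. Def6 itself had 112 to 186 reads in the WT libraries and 0 to 2 in the Def6-/- libraries. The library WT day 0 replicate 1 stood apart: 34.9% of its reads were not aligned uniquely against at most 26.6% elsewhere, and its summed osteoblast markers were 36518 normalized CPM against 48288 to 51974 in the other day 0 libraries. With it as the lone WT library at day 0, 2945 of all tested genes passed an adjusted p of 0.05 between the genotypes at day 0, against 1 in the full set. Results that rest on it are given with and without it below.

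Values are normalized CPM, the usual counts scaled to library size, here to the reads on genes after correction of composition, and differences are on the scale of log2(normalized CPM + 1), which understates changes of low genes. The test was limma on this scale, with p-values adjusted by Benjamini and Hochberg over 12348 genes. Between days, a gene was called at an adjusted p under 0.05. Between genotypes the study's criterion was used, an unadjusted p under 0.05 with a change over 1.2-fold.

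Day 12 cultures held several times more Schlafen RNA than day 0 cultures in both genotypes. The 7 members together took 33 and 65 reads in WT day 0, 431 and 304 in WT day 12, 38 and 63 in Def6-/- day 0, and 240 and 221 in Def6-/- day 12. As normalized CPM these sums were 13.0 and 23.0, then 124 and 127, then 14.3 and 21.5, then 98.5 and 94.3. Slfn5, Slfn2 and Slfn8 rose between the days in both genotypes. Of the 7 members, 5 had enough reads to be tested and 3 were called higher at day 12 in WT cells, where 12.7% of all tested genes were called higher. In Def6-/- cells 3 were again called higher, where 12% of all tested genes were. No member was called lower in either genotype. The median difference over the 5 tested members was 2.33 in WT and 2.07 in Def6-/- cells, beside 0.00 and 0.01 over all tested genes. Slfn5, Slfn8 and Slfn3 passed the filter only through day 12 groups, which favours a rise, and Slfn5 and Slfn8 are among those called. Neither the counts of members called nor this median therefore describes the family as a whole.

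Macrophage markers rose with the Schlafen genes: 19 of 20 were called higher at day 12 in WT and 18 of 20 in Def6-/- cells. The 20 leave out the 12 marker genes of the study, which described its macrophage and osteoclast markers as very low. The summed level of the 20 was 286 to 482 normalized CPM in WT day 0 and 3664 to 7155 in WT day 12. In Def6-/- cells it was 227 to 353 at day 0 and 3993 to 4477 at day 12. None of the 20 was at 0 at day 12. Their part in the rise of Slfn5, Slfn2 and Slfn8 was not tested. In bulk RNA, more cells of a type and more RNA per cell cannot be told apart.

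**Figure D1:**
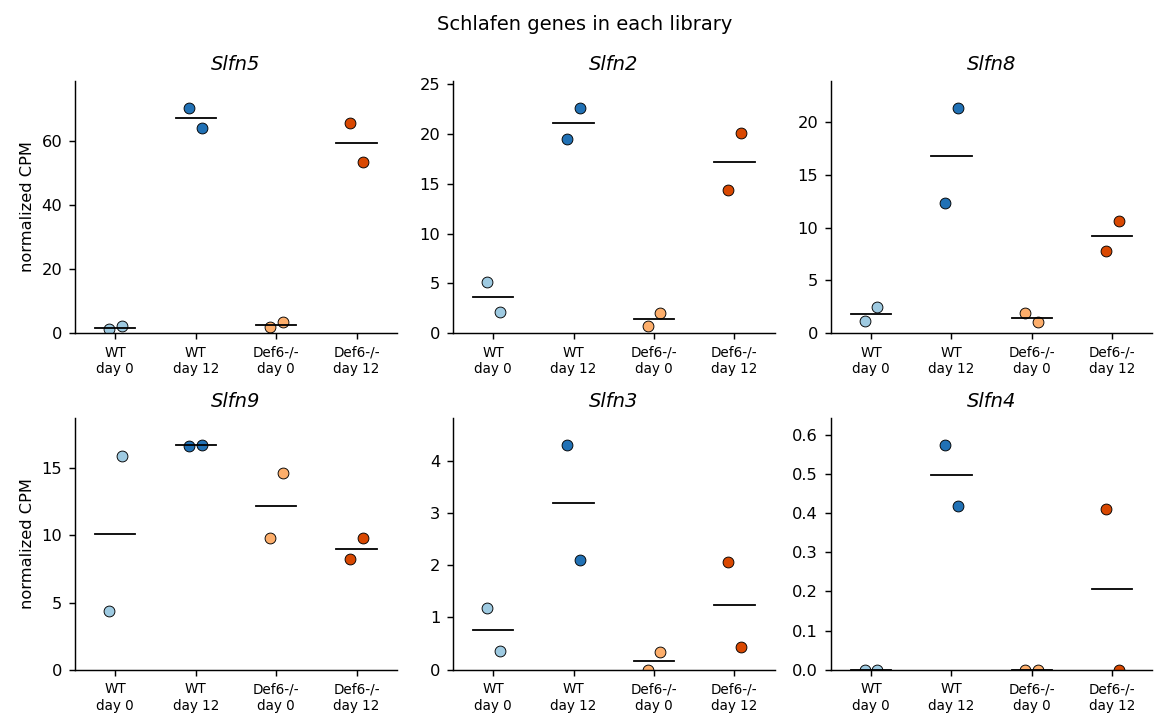
Each panel plots 1 Schlafen gene, with normalized CPM on the vertical axis from 0, a point for each of the 2 libraries of a group and a line at their mean. Slfn5, Slfn2 and Slfn8 are higher in every day 12 library than in every day 0 library, whereas the day 0 values of Slfn9 span 4.35 to 15.9. Slfn1, at 0 in all 8 libraries, is not drawn.

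Slfn5, a long nuclear member, rose the most. It had 3 and 6 reads in WT day 0, 245 and 153 in WT day 12, 5 and 10 in Def6-/- day 0, and 160 and 125 in Def6-/- day 12. In the same order its normalized CPM was 1.19 and 2.12, 70.3 and 64.1, 1.88 and 3.41, and 65.7 and 53.4. Every day 12 library lay far above every day 0 library, and the genotypes overlapped at each day. The difference between days was 4.71 ± 0.31 (SE) in WT cells (adjusted p = 5.78e-05, limma) and 4.08 ± 0.31 in Def6-/- cells (adjusted p = 8.96e-05, limma). On the recovered reads, without the added 1, edgeR's quasi-likelihood test gave a log2 fold change of 5.29 in WT and 4.45 in Def6-/- cells.

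Slfn5 overlaps Slfn5os, a gene annotated on the other strand, over 9333 bases. Slfn5os had 0 and 0 reads in WT day 0, 3 and 4 in WT day 12, 0 and 1 in Def6-/- day 0, and 3 and 3 in Def6-/- day 12. The strand setting of the authors' counting is not given in the sources used here, and without it reads of the 2 genes cannot be told apart where they overlap.

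Slfn8, a long member, and Slfn2, the short member known for keeping T cells quiescent, also rose. Slfn8 had 3 and 7 reads in WT day 0, 43 and 51 in WT day 12, 5 and 3 in Def6-/- day 0, and 19 and 25 in Def6-/- day 12. Its normalized CPM was 1.19 and 2.47, 12.3 and 21.4, 1.88 and 1.02, and 7.80 and 10.7 in that order. Day 12 exceeded day 0 in all libraries, and at day 12 the WT libraries were the higher ones without overlap. The difference between days was 2.65 ± 0.41 in WT cells (adjusted p = 0.00270, limma) and 2.07 ± 0.41 in Def6-/- cells (adjusted p = 0.00868, limma). In Def6-/- cells this call was lost without Def6-/- day 0 replicate 2 (1.81, adjusted p = 0.0701) or without Def6-/- day 12 replicate 2 (1.87, adjusted p = 0.0811).

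Slfn2 had 13 and 6 reads in WT day 0, 68 and 54 in WT day 12, 2 and 6 in Def6-/- day 0, and 35 and 47 in Def6-/- day 12. Its normalized CPM was 5.14 and 2.12, 19.5 and 22.6, 0.752 and 2.04, and 14.4 and 20.1. The groups of the 2 days did not overlap in either genotype, and WT day 0 replicate 1 held the highest day 0 value. The difference between days was 2.33 ± 0.42 in WT cells (adjusted p = 0.00569, limma) and 2.96 ± 0.42 in Def6-/- cells (adjusted p = 0.00185, limma). In WT cells the call was lost without WT day 12 replicate 2 (2.23, adjusted p = 0.0566).

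Slfn9, the close copy of Slfn8, was already expressed at day 0 and was not called between the days. It had 11 and 45 reads in WT day 0, 58 and 40 in WT day 12, 26 and 43 in Def6-/- day 0, and 20 and 23 in Def6-/- day 12. Its normalized CPM was 4.35 and 15.9, 16.6 and 16.7, 9.78 and 14.6, and 8.21 and 9.82. In WT cells both day 0 libraries were below both day 12 libraries, replicate 2 only narrowly (15.9 against 16.6 and 16.7). In Def6-/- cells the 2 days overlapped. The difference between days was 0.90 in WT cells (95% interval -0.21 to 2.0, adjusted p = 0.239, limma) and -0.38 in Def6-/- cells (-1.48 to 0.73, adjusted p = 0.664, limma). The WT value was 0.07 without WT day 0 replicate 1 (adjusted p = 0.905) and 1.73 without WT day 0 replicate 2 (adjusted p = 0.00167), so that 1 library decided it.

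Slfn8 and Slfn9 thus took different shares of their joint reads at the 2 days. There were 0.273 and 0.156 reads of Slfn8 per read of Slfn9 in WT day 0 and 0.192 and 0.0698 in Def6-/- day 0. At day 12 the ratio was 0.741 and 1.27 in WT and 0.950 and 1.09 in Def6-/- cells, higher in all 4 libraries than at day 0. Of the 50-base stretches of Slfn8 transcripts, 9.30% also occurred in Slfn9 and 10.1% in the pseudogene Slfn10-ps, so part of their reads could be assigned to either copy or lost. With the reads of Slfn8 and Slfn9 summed, the difference between days was 1.61 in WT and 0.40 in Def6-/- cells, a description with no test. Slfn10-ps itself had 2 to 5 reads at day 0 and 2 to 12 at day 12.

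**Figure D2:**
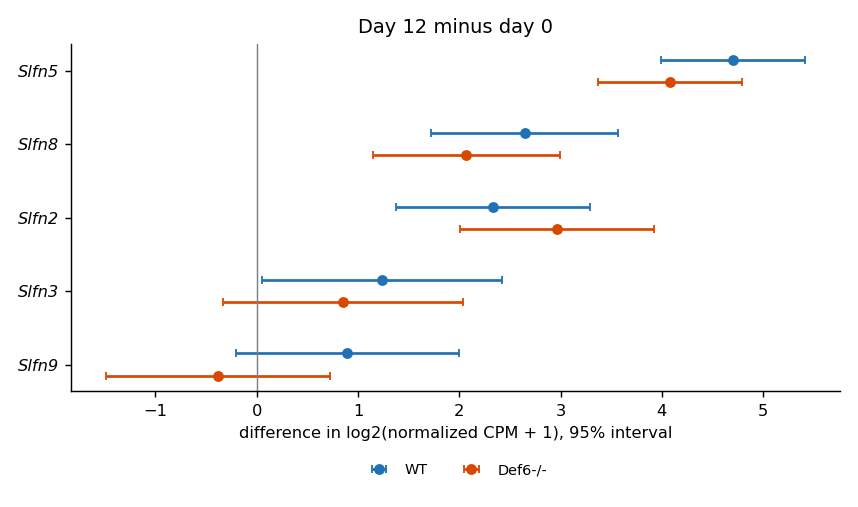
Day 12 minus day 0 is plotted for the 5 tested members on the scale of log2(normalized CPM + 1), with points for WT (blue) and Def6-/- (orange) and bars for the 95% interval from limma. The bars of Slfn5, Slfn8 and Slfn2 lie above 0 in both genotypes, and those of Slfn9 cross 0 in both.

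The remaining members had few reads. Slfn3, an intermediate member studied mainly in gut epithelium, had 3 and 1 reads in WT day 0, 15 and 5 in WT day 12, 0 and 1 in Def6-/- day 0, and 5 and 1 in Def6-/- day 12. In normalized CPM its day 12 libraries were above its day 0 libraries in each genotype. In Def6-/- cells this rested on the scaling, as replicate 2 of each day held 1 read (0.341 at day 0 against 0.427 at day 12). The difference between days was 1.24 in WT cells (95% interval 0.05 to 2.42, adjusted p = 0.139, limma) and 0.85 in Def6-/- cells (-0.33 to 2.03, adjusted p = 0.322, limma), and neither was called. Of its 50-base stretches 7.39% also occurred in Slfn4.

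Slfn4, an intermediate member known from myeloid cells, had 4 reads in all. They were 2 and 1 in WT day 12 and 1 in Def6-/- day 12 replicate 1, and the other 5 libraries held 0. Both genotypes were at or under 3 reads at both days, and no fold is given. Slfn1, the short member named for growth arrest in T cells, had 0 reads in all 8 libraries. A count of 0 allows up to 3 reads, which is 0.861 to 1.24 CPM of the reads on genes in these libraries and covers counting error only. Slfn14 and Slfnl1 were not among the members chosen here and were also at 0 in all 8 libraries. Slfn14 lies on chromosome 11 past the end of the cluster, and Slfnl1 lies on chromosome 4.

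The make-up of the Schlafen reads changed from mostly Slfn9 to mostly Slfn5. Slfn9 took 33.3% and 69.2% of the members' reads in WT day 0 and 68.4% and 68.3% in Def6-/- day 0. At day 12 it took 13.5% and 13.2% in WT and 8.33% and 10.4% in Def6-/- cells. Slfn5 took 9.09% to 15.9% at day 0 and 50.3% to 66.7% at day 12. The exception at day 0 was WT day 0 replicate 1, where Slfn2 had the largest share, 39.4% of 33 reads.

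**Figure D3:**
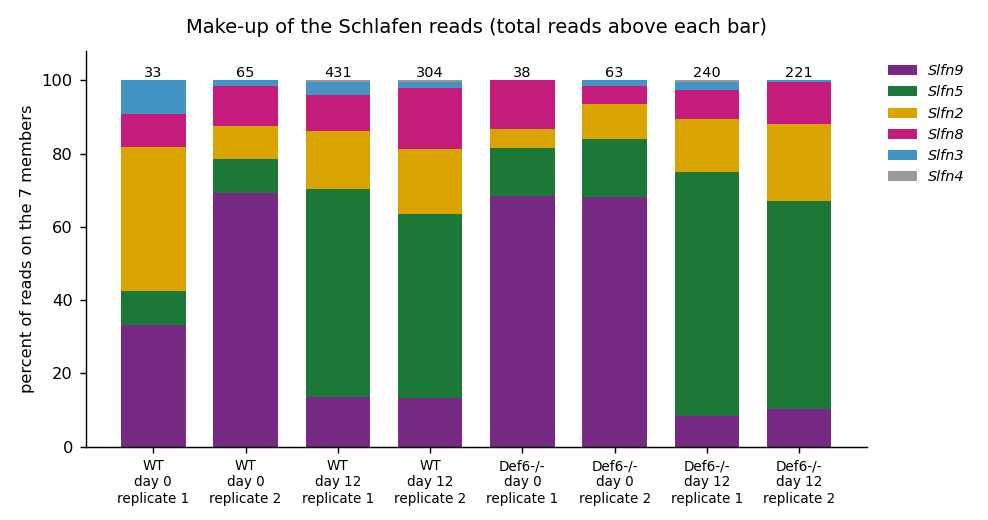
Each bar is 1 library and shows the percent of the reads on the 7 members that each member took, with the total number of those reads above the bar. Slfn9 (purple) takes 68.3% to 69.2% in 3 of the 4 day 0 libraries and 8.33% to 13.5% at day 12, where Slfn5 (green) takes over 50%.

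Long transcripts collect more reads, so levels between genes were compared as normalized CPM per kilobase of exon. At day 12 in WT cells the order was Slfn2 (12.7 ± 1.32, SD, n = 2), Slfn5 (10.6 ± 0.698), Slfn8 (4.12 ± 1.56), Slfn9 (2.80 ± 0.0123), Slfn3 (0.938 ± 0.458) and Slfn4 (0.125 ± 0.0277). The order was the same in Def6-/- cells, with 10.3 ± 2.42 for Slfn2, 9.41 ± 1.38 for Slfn5, 2.26 ± 0.496 for Slfn8 and 1.51 ± 0.190 for Slfn9. Slfn2 and Slfn5 overlapped in Def6-/- cells, where their order was within the spread. In WT cells the lower Slfn2 library (11.7) was just above the higher Slfn5 library (11.1), although Slfn2 had 122 reads in WT day 12 against 398 for Slfn5.

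At day 0 the levels per kilobase in WT cells were 2.18 ± 1.28 for Slfn2, 1.70 ± 1.37 for Slfn9, 0.447 ± 0.223 for Slfn8, 0.261 ± 0.104 for Slfn5 and 0.226 ± 0.172 for Slfn3. In Def6-/- cells they were 2.05 ± 0.576 for Slfn9, above its own day 12 mean, 0.840 ± 0.549 for Slfn2, 0.418 ± 0.170 for Slfn5, 0.355 ± 0.148 for Slfn8 and 0.0499 ± 0.0706 for Slfn3. Slfn2 and Slfn9 overlapped in WT cells, and Slfn5 and Slfn8 overlapped in both genotypes. The lengths are those of all annotated exons together, and which transcripts were made is not known.

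Between the genotypes at day 12, the fitted value of each of the 5 tested members was lower in Def6-/- cells and none was called, where 1.4% of all tested genes were called in either direction. The difference was -0.83 for Slfn9 (95% interval -1.93 to 0.28), -0.77 for Slfn8 (-1.69 to 0.15) and -0.96 for Slfn3 (-2.14 to 0.23). It was -0.29 for Slfn2 (-1.25 to 0.67) and -0.18 for Slfn5 (-0.89 to 0.53), and the adjusted p from limma was 1 for all 5. For Slfn9, Slfn8 and Slfn3 the genotypes did not overlap and each Def6-/- library was the lower, as in 15.9% of all tested genes. For Slfn3 this rested on the scaling: WT day 12 replicate 2 and Def6-/- day 12 replicate 1 each held 5 reads, and as deposited CPM they were 0.588 and 0.698, so that the genotypes overlapped. The Slfn2 and Slfn5 libraries overlapped. The median over the 5 was -0.77, beside 0.00 over all tested genes. Slfn3 is among these 5 and passed the filter only through WT day 12, which favours a lower Def6-/- value at that day. With edgeR on the recovered reads the values were -0.89 for Slfn9, -0.85 for Slfn8 and -1.37 for Slfn3, and 0 members were called by edgeR or by DESeq2.

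Slfn9 and Slfn8 depended on which libraries set the spread. Slfn9 had 16.6 and 16.7 in WT day 12 against 8.21 and 9.82 in Def6-/- day 12, a gap larger than the spread within either group. With only the 4 day 12 libraries in the fit, both passed the study's criterion at the same differences of -0.83 and -0.77. The share of all tested genes that passed in that fit is not given here. Slfn9 also passed when either WT day 0 library was left out, which removes the wide spread of that group. Slfn8 passed without WT day 12 replicate 1 (-1.14), and Slfn3 passed without Def6-/- day 12 replicate 1 (-1.51). Other omissions made the differences smaller. Slfn8 was at -0.40 without WT day 12 replicate 2, and Slfn3 at -0.41 without Def6-/- day 12 replicate 2. Slfn9 ranged from -0.94 to -0.71 when single libraries were left out. The wide intervals of Slfn5 and Slfn2 allow a fall or a rise, and they do not show that the genotypes were alike.

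**Figure D4:**
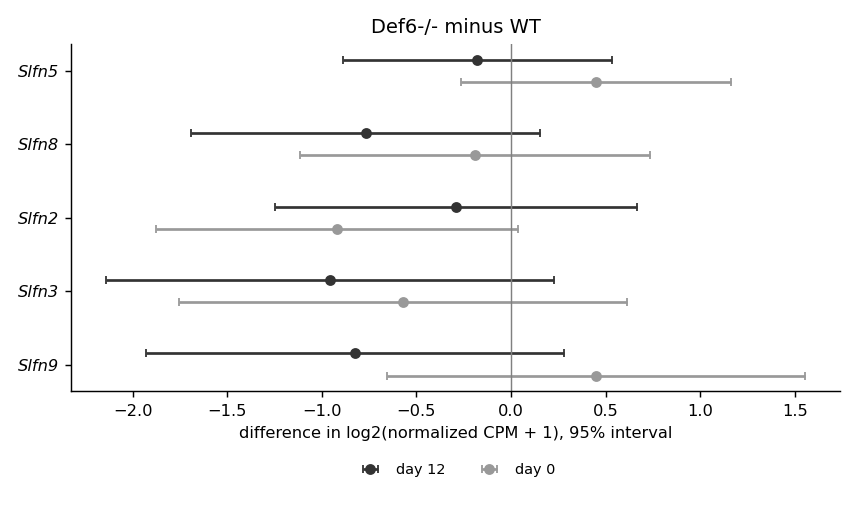
Def6-/- minus WT is plotted for the 5 tested members on the scale of log2(normalized CPM + 1), with points for day 12 (black) and day 0 (grey) and bars for the 95% interval from limma. All 5 black points lie below 0, between -0.96 and -0.18, and all 10 bars cross 0.

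At day 0 the members differed in sign between the genotypes and none was called, where 2.29% of all tested genes were. Slfn2 was at -0.92 (95% interval -1.88 to 0.03, adjusted p = 0.908, limma), with 5.14 and 2.12 in WT against 0.752 and 2.04 in Def6-/- cells. Its libraries did not overlap (2.12 against 2.04), but replicate 2 of each genotype held 6 reads, so this rested on the scaling. A pseudocount of 0.5 or 0.1 put Slfn2 past the study's criterion, where 2.47% and 2.67% of all tested genes were called. Slfn3 did not overlap either, with 1 read in replicate 2 of each genotype (0.353 in WT against 0.341 in Def6-/- cells). The share of all tested genes without overlap was not computed for the genotypes at day 0 or between the days, so those gaps are descriptions only. Slfn3 was at -0.57 (-1.75 to 0.61), Slfn8 at -0.19 (-1.11 to 0.73), Slfn5 at 0.45 (-0.26 to 1.16) and Slfn9 at 0.45 (-0.65 to 1.56), with adjusted p-values of 0.908 to 0.946. The value of Slfn9 was -0.38 without WT day 0 replicate 1 and 1.28 without WT day 0 replicate 2, where it passed, so that these libraries set its direction. Slfn2 (-1.41) and Slfn5 (0.70) also passed without WT day 0 replicate 2, and Slfn2 passed without Def6-/- day 0 replicate 2 (-1.32). Without WT day 0 replicate 1, which held the highest day 0 value, Slfn2 was at -0.43 and did not pass.

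Whether the change between the days differed between the genotypes was tested as an interaction. No member passed an unadjusted p of 0.05 in limma, edgeR or DESeq2, and 1.13% of all tested genes did in limma. The nearest was Slfn9, whose change in Def6-/- cells was lower by a fitted -1.28 (95% interval -2.84 to 0.29, limma). That value was -0.45 without WT day 0 replicate 1 and -2.11 without WT day 0 replicate 2, where it passed. The others were 0.63 for Slfn2 (-0.72 to 1.98), -0.63 for Slfn5 (-1.63 to 0.38), -0.58 for Slfn8 (-1.88 to 0.73) and -0.39 for Slfn3 (-2.06 to 1.29). Without WT day 0 replicate 1 the value of Slfn2 was 0.14.

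Type I interferon signalling, the pathway that induces many Schlafen genes, was followed from ligand to feedback. Type I interferons bind the receptor pair Ifnar1 and Ifnar2, the kinases Jak1 and Tyk2 are then activated, and transcription factors that include Stat2 and Irf9 bind the response element shown above. Of 18 ligand genes, 16 had 0 reads in all libraries. Ifnb1 had 2 reads in Def6-/- day 12 replicate 1, and Ifnz had 1 read in each of 2 day 0 libraries. All 4 receptor and kinase genes were expressed, and 0 of 4 were called in any comparison.

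Downstream of the receptor, the transcription factor genes Irf7, Irf9 and Stat2 rose between the days in both genotypes. Irf1 rose in WT cells and was at 0.33 in Def6-/- cells (adjusted p = 0.415, limma), and Irf2 was not called. Irf7, the factor that amplifies interferon production, had 5.93 and 8.48 normalized CPM in WT day 0, 29.0 and 56.5 in WT day 12, 1.13 and 4.09 in Def6-/- day 0, and 15.6 and 13.2 in Def6-/- day 12. Day 12 was above day 0 in each genotype, by 2.36 (adjusted p = 0.00884, limma) and 2.22 (adjusted p = 0.0119, limma), and Def6-/- libraries were lower at both days. Of 4 feedback genes, the deconjugase Usp18 and the ubiquitin-like modifier Isg15 rose in both genotypes, and Socs1 and Socs3 were not called. The call of Irf1 in WT cells was lost in 9 of 19 alternatives. In Def6-/- cells the calls of Irf9, Stat2, Irf7 and Usp18 were lost in 12, 8, 3 and 3 of 19, and those of Irf7, Isg15 and Usp18 in WT cells were lost when WT day 12 replicate 2 was left out.

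Between the genotypes at day 12, Irf7 (-1.43, 95% interval -2.49 to -0.38), Irf9 (-0.65, -1.28 to -0.02) and Isg15 (-1.47, -2.80 to -0.14) were lower in Def6-/- cells by the study's criterion, and each had an adjusted p of 1 (limma). At day 0, Irf7 (-1.30, -2.36 to -0.24) and Isg15 (-1.65, -2.99 to -0.32) were lower by that criterion, with an adjusted p of 0.908 (limma). At day 0 the Isg15 call was lost without WT day 0 replicate 1 (-0.96) or Def6-/- day 0 replicate 1 (-0.89), and the Irf7 call without Def6-/- day 0 replicate 1 (-0.67) or WT day 0 replicate 2 (-1.07). Both were also lost with only the day 0 libraries in the fit. The calls at day 12 were lost in 2 of 19 alternatives for Irf7, 6 for Irf9 and 4 for Isg15. Among them was the fit without WT day 12 replicate 2 (-0.96 for Irf7, -0.62 for Irf9 and -0.99 for Isg15). No Schlafen member passed the same criterion, but the difference between these genes and the members was not tested.

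Markers of the cell types that the cultures could hold were set beside these values. All 10 osteoblast markers were present, with at most 2 of them at 0 in any day 0 library and none at day 12. Within WT day 12, replicate 1 had the higher macrophage sum (7155 against 3664). It was lower than replicate 2 in Slfn2 (19.5 against 22.6) and Slfn8 (12.3 against 21.4), and higher in Slfn5 (70.3 against 64.1), Slfn3 (4.30 against 2.09) and Slfn4 (0.574 against 0.419). Slfn9 was at 16.6 against 16.7. Within WT day 0, replicate 1 also had the higher macrophage sum (482 against 286). There it was higher than replicate 2 in Slfn2 (5.14 against 2.12) and Slfn3 (1.19 against 0.353). It was lower in Slfn5 (1.19 against 2.12), Slfn8 (1.19 against 2.47) and Slfn9 (4.35 against 15.9). A link between the macrophage sum and the members was not tested. Between the genotypes 0 of 20 macrophage markers met the study's criterion at either day, although 19 of 20 were lower in fitted value in Def6-/- cells at day 12, with a median of -0.29. Lymphocyte markers were near 0: 10 of 12 had no read in any library, among them the T cell genes Cd3d, Cd3e and Cd3g and the B cell gene Cd79a. Cd4 was at 0 at day 0 and had 5 to 35 reads at day 12. Of 9 neutrophil markers, 5 had no read in any library and the sum was at most 11 reads. Endothelial markers summed to 7.51 to 12.9 normalized CPM at day 0 and 16.1 to 18.8 at day 12.

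The genes flanking the cluster were read against the share of all tested genes called higher at day 12, 12.7% in WT and 12% in Def6-/- cells. Of the nearest 5 tested genes on each side, 1, AI662270, was called in WT cells (1.62, adjusted p = 0.0412, limma), which is near that share, and none was in Def6-/- cells, where AI662270 was at 1.41 (adjusted p = 0.0704, limma). The call of AI662270 in WT cells was lost in 12 of 19 alternatives.

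Genes outside the family with the pattern most like that of Slfn5, the member with the most reads, were found by Pearson's r of log2(normalized CPM + 1). Over the 8 libraries they were Rbpjl, Cp, Angpt1, Kctd12 and Sfrp2, each with r of 0.998 to 0.999. These values mostly describe the gap between the days. Within the family r with Slfn5 was 0.935 for Slfn8, 0.915 for Slfn2, 0.685 for Slfn3 and 0.317 for Slfn9. After the mean of each day was subtracted, the most alike were Tecpr2, Card6, Kifap3, Ugt1a7c and Rnft2 with r of 0.959 to 0.990, while Slfn9 was at 0.746, Slfn3 at 0.065, Slfn8 at -0.05 and Slfn2 at -0.42. These are descriptions over 8 libraries that share depth and culture differences.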

How the data were processed

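RNA-seq was analysed for 8 libraries, 2 per group. Per the labels and the study's methods, the authors prepared poly-A libraries, used fastp on the reads, HISAT2 with mm10 for alignment and HTSeq for counting, and the deposited unit is CPM from edgeR. Versions, annotation and strand setting are not given in the sources used here. The deposited CPM are relative to all reads handled by HTSeq, of which 28.8% to 35.3% lay on genes.

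Whole reads were recovered from the steps of the CPM values: 99.957% of 114821 positive values were whole within 0.005 reads, and all values of the 7 members were. Values were then scaled to the total on genes, with TMM factors over the tested genes. A gene was tested where the mean of its deposited values reached 1 in any group (12348 genes). The main test was limma 3.58.1 (lmFit, eBayes with trend) on log2(CPM + 1) over 4 group means, two-sided, in R 4.3.3. edgeR 4.0.16 and DESeq2 1.42.0 on recovered reads were alternatives, besides other pseudocounts, filters and scalings, a replicate block, a fit of the 2 groups compared and leaving out each library. TMM factors over all genes were added after seeing the data. The fits and the recovery of reads were tested on simulated data.

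The members and gene lists were chosen with earlier results of these data known. Named genes were all members, other genes with Slfn names, Def6, listed interferon signalling genes, the 5 genes most like the member with the most reads, and the 5 nearest tested genes on each side of the cluster. Some listed genes are not reported here. Sequences and neighbours came from RefSeq (GRCm38.p6), lengths and identities from GENCODE M21 with Biopython 1.88.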

Additional observations from a re-analysis of the deposited data

How the results depend on the processing

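Depth limits Slfn1, Slfn3 and Slfn4, and with 2 libraries per group the spread is largely borrowed from other genes. When a library is left out, the lone library of its group is assumed to vary like the other groups. Of the members' differences in 470 repeats, 445 kept their direction and side of the threshold. The count of members called between days was 2 to 4 in WT and 2 to 3 in Def6-/- cells when single libraries were left out, and 3 in each with a replicate block. Between the genotypes the count was 0 with the replicate block at both days and for the interaction. Numbers pair the libraries neither by the labels nor by 3 or more pairs (correlations of 0.0369 to 0.327 between libraries of 1 number), so the block is only an alternative, and it changed no member's call.

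At day 12 the count between genotypes was 2 (Slfn8 and Slfn9) when only the 4 day 12 libraries were fitted. The share of all tested genes called in that fit is not given here. At day 0 the count was 1 (Slfn2) with a pseudocount of 0.5 or 0.1, where 2.47% and 2.67% of all tested genes were called. Leaving out single libraries changed which members passed at either day, as given above. At day 0, Slfn9, Slfn2 and Slfn5 passed without WT day 0 replicate 2. That fit has WT day 0 replicate 1, the library that stood apart, as its lone WT library at day 0. The interaction of Slfn9 passed in the same fit.

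Some differences that were not called turned direction. The interaction of Slfn3 was -0.39 and became 0.32 with a pseudocount of 0.1, 0.45 in edgeR and 0.70 in DESeq2, with a range of -0.93 to 0.16 when single libraries were left out. At day 0 the genotype difference ranged from -0.53 to 0.14 for Slfn8 and from -0.38 to 1.28 for Slfn9 in those repeats. The cause was not tested.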
